A study of Drosophila melanogaster with 5 samples.

Results

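The regions described here are the autosomal places where ZIPIC was called and neither Pita nor Zw5 was. They were selected on the peak calls themselves, as the intervals of the ZIPIC list called against input DNA on chromosome arms 2L, 2R, 3L and 3R that share no base with any interval of the Pita or Zw5 list called against input. There were 245 such ZIPIC-alone peaks, which is 58.1% of the 422 autosomal ZIPIC peaks and part of 575 ZIPIC peaks in all. Chromatin immunoprecipitation followed by sequencing was run on whole Oregon-R Drosophila melanogaster embryos from a collection of 12 h, so the chromatin mixes cell types and developmental stages. Rabbit antibodies were raised against residues 84 to 257 of ZIPIC, 550 to 683 of Pita and 98 to 302 of Zw5, and the controls were a precipitate with preimmune rabbit serum and input DNA. The labels' protocol text names rabbit IgG where the sample label names preimmune sera, and the label is followed here. Each of the 5 libraries was made once, so no difference below has a replicate test, and the Wilson 95% intervals given with shares reflect counting error alone. The ZIPIC chromatin was preparation B and that of Pita and Zw5 preparation A, per the peak names, so preparation and antibody cannot be told apart.

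ZIPIC, Pita and Zw5 are DNA-binding proteins with a row of C2H2 zinc fingers and an N-terminal zinc-finger-associated domain through which they form dimers. They are counted among the architectural or insulator proteins of Drosophila, which mark boundaries between chromatin domains and can bring distant sites into contact. ZIPIC is named for its interaction with CP190, a cofactor that many fly insulator proteins recruit and that does not itself read a specific DNA sequence. In the peak names the ZIPIC library carries the gene's older name, CG7928.

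"Alone" refers to calls in these lists and not to absence of the other proteins. The weakest autosomal call had a fold of 2.15 over input in the Pita list and 2.28 in the Zw5 list. Pita or Zw5 signal too weak to be called would not be seen under a ZIPIC-alone peak. The weakest call in the ZIPIC list was higher, at 3.94. The fold is the authors' own enrichment value for each summit, relative to the control around it. From the fold and the p-value of a peak, the number of fragments piled up at its summit (the pileup) and the control background, scaled to the ZIPIC library, were solved. The pileup came out within 0.05 of a whole number for 100% of ZIPIC peaks in both ZIPIC lists, and it is the depth behind each fold.

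ZIPIC-alone peaks were mostly of moderate height. Their fold over input ran from 3.94 to 31.1 with a median of 10.2 (interquartile range 6.54 to 16.3), against a median of 21.4 (13.3 to 28.2) and a highest value of 59.8 at the 177 autosomal ZIPIC peaks that also carried Pita or Zw5. Fold over input belongs to the calls that defined the regions, so these medians are descriptive. The median pileup was 23 fragments (15 to 38, lowest 8, highest 79) at ZIPIC-alone peaks and 50 (28 to 66) at the others. The median interval was 283 bp at ZIPIC-alone peaks and 386 bp at the others. Of the 245 regions, 128 reached 10-fold over input and 26 reached 20-fold, against 139 and 100 of the 177 others. A −log10 q of 10 or more was reached by 169 ZIPIC-alone peaks (69.0%), where 76.8% of all autosomal ZIPIC peaks did.

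The share of peaks that ZIPIC held alone fell with height. Height over input and membership come from the same ZIPIC input calls, so the shares below are descriptive. The part of interval width in them was not tested. Among the 106 highest autosomal ZIPIC peaks (21.6-fold or more over input), 18 were alone (17.0%, 11.0 to 25.3). Among the next 106 it was 66 (62.3%, 52.8 to 70.9), then 79 of 105 (75.2%, 66.2 to 82.5), and 82 of the 105 lowest (78.1%, 69.3 to 84.9). The highest ZIPIC-alone peak ranked 36 among autosomal ZIPIC peaks, and all 35 above it carried Pita or Zw5. Of the 50 highest, 4 were alone and 45 carried Zw5.

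The highest ZIPIC-alone peaks were called against both controls, stood on 53 to 79 fragments and lay on all 4 autosome arms. The first, at 3L 6182008 to 6182472 on dm3, reached 31.1-fold over input and 29.4-fold with preimmune serum as the control, with 74 fragments at its summit (95% exact Poisson interval 58.1 to 92.9). Its nearest Pita summit was 7.15 kb away and its nearest Zw5 summit 64.3 kb. The second, at 3R 14584574 to 14585003, had a 30.1-fold enrichment over input, 20.5-fold over serum, on 64 fragments (49.3 to 81.7). It was the farthest from Zw5 of the 10 highest, 337.2 kb from the nearest summit. The third, at 3R 9502173 to 9502556, had 76 fragments (59.9 to 95.1) and folds of 28.8 and 22.1. It lay 1.73 kb from a Pita summit and 1.76 kb from a Zw5 summit, close to both and overlapping neither.

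The other 7 of the 10 highest ranged from 25.4- to 28.7-fold over input. At 3L 12108751 to 12109282 the folds were 28.7 (input) and 20.6 (serum), and at 2L 9917978 to 9918380 they were 27.9 and 27.4. The single 2R region among the 10, at 2R 14013197 to 14013542, had 26.8 and 27.3. Here the controls gave nearly the same fold at the 2L and 2R sites and a lower one with serum at the 3L site. Next came 3L 4286781 to 4287163 (26.5 and 28.1), 3L 9439697 to 9440045 (26.2 over either control) and 2L 5326608 to 5326978 (25.4 and 30.3). The first of these lay 4.21 kb and the second 4.50 kb from another ZIPIC summit, and the last 1.70 kb.

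The region at 3R 8248230 to 8248665 had the highest pileup of all ZIPIC-alone peaks, 79 fragments (62.5 to 98.5), with a fold of 27.5 against input and of 38.4 against serum, the highest serum value in the set. It was also the 1 region of the 245 that met a peak of the Zw5 list called against preimmune serum. That Zw5 peak spanned 8248326 to 8248591, with a fold of 4.47 over serum and a −log10 q of 8.05, and the 2 summits were 13 bp apart. The Zw5 list called against input had no interval there. No ZIPIC-alone region met the Pita list called against preimmune serum. The nearest other ZIPIC summit was 540.2 kb away.

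**Figure D1:**
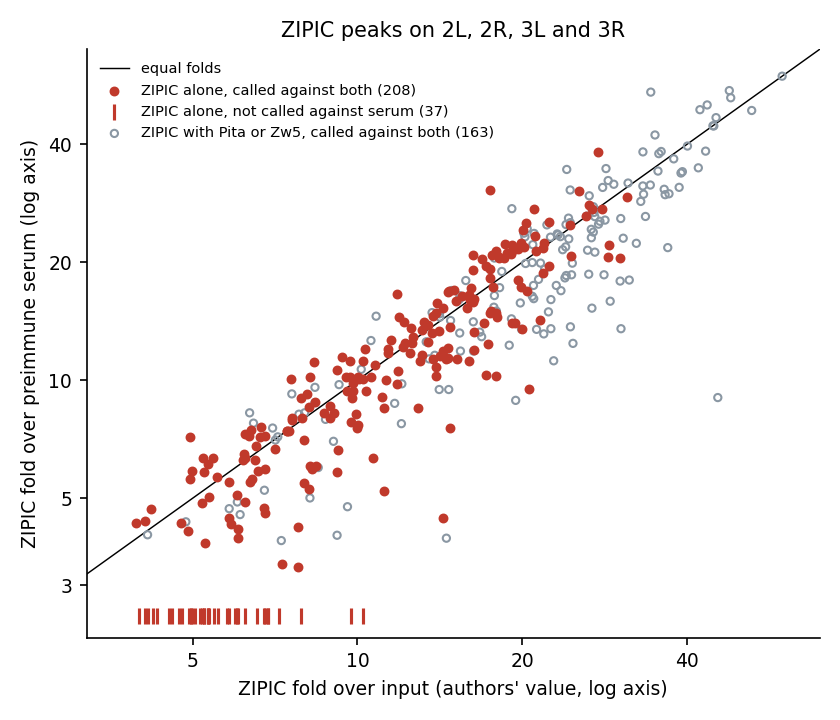
Each point is an autosomal ZIPIC peak, placed by its fold over input on the horizontal log axis and over serum on the vertical log axis. Filled red points are the 208 ZIPIC-alone peaks called against both controls, ticks at the bottom the 37 with no call against serum (drawn at their fold over input), open grey points the 163 peaks with Pita or Zw5, and the line marks equal folds. The ticks end at 10.2-fold over input, while ZIPIC-alone peaks called against both reach 31.1.

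Preimmune serum is a separate control from the one that defined the regions, applied to the same ZIPIC precipitate. Of the 245 ZIPIC-alone peaks, 208 were also called against it (84.9%, 79.9 to 88.8), where 87.9% of all 422 autosomal ZIPIC peaks were, so the share was near the background. It was 163 of 177 (92.1%, 87.2 to 95.2) at the peaks with Pita or Zw5. At the 208 regions the pileup was the same whole number in both lists in 208 cases, and the summits lay within 10 bp of each other in 199 (95.7%), with a median shift of 1 bp. Both calls read the same fragments, so neither the position nor the pileup is an independent measurement. The folds differ through the control alone, with a Spearman rho of 0.911 between them at the 208 regions.

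Over serum, the median fold was 11.2 (interquartile range 7.27 to 16.5, range 3.33 to 38.4) at the 208 ZIPIC-alone regions and 18.5 (12.6 to 26.2) at the 163 others. The 2 folds of a ZIPIC-alone region were close: fold over input divided by fold over serum had a median of 1.01 (0.911 to 1.21), and lay between 0.8 and 1.25 in 156 of 208. It was above 1.25 in 44 (21.2%) and below 0.8 in 8 (3.85%). At the peaks with Pita or Zw5 the median was 1.10 (0.955 to 1.30), with 50 of 163 above 1.25 (30.7%) and 5 below 0.8 (3.07%). Median control background at the summit, scaled to the ZIPIC library, was 1.38 fragments in input and 1.39 in serum at ZIPIC-alone regions, and 1.33 and 1.55 at the others.

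A few regions stood on uneven controls. At 3R 25598255 to 25598581 the fold was 14.3 with input and 4.44 with serum, and the control background was 1.72 fragments in input and 7.79 in serum under the same pileup of 38 (26.9 to 52.2). This region lay 506 bp from another ZIPIC summit and 494 bp from a Zw5 summit. The next ratios were lower, at 2.34 for 3R 1833747 to 1834172 (folds of 7.79 and 3.33) and 2.16 for 2L 5943463 to 5943808 (20.6 and 9.52). The remaining 2 of the 5 highest, 3L 3789219 to 3789426 and 2R 579748 to 580981, shared a ratio of 2.15 and had the same backgrounds, 1.06 fragments in input and 3.42 in serum. The input value of 1.06 was the lowest of any ZIPIC-alone region and was shared by 16 of them. The lowest serum background of a ZIPIC-alone region was also 1.06, and 1.06 was the most common background in both ZIPIC lists. A value shared so widely reads as a lower limit, so it need not be the control coverage at that site. Other small backgrounds carry counting error of their own, which was not estimated and which the ratios do not show.

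At the other end, 2R 19452233 to 19452535 had folds of 17.5 (input) and 30.6 (serum), a ratio of 0.572. Its background was 2.60 fragments in input and 1.06 in serum, under 62 fragments of ZIPIC (47.5 to 79.5). That serum value was the lowest of any ZIPIC-alone region called against serum and was shared by 30 of them. The region at 3R 8248230, described above, was also among the 5 lowest, at 0.717. The others were 3R 23089153 to 23089304 (0.690), 3R 11635916 to 11636193 (0.712) and 2R 17211345 to 17211718 (0.748). In these 5 it was input, not serum, that carried more background.

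The 37 ZIPIC-alone peaks without a call against preimmune serum were low and narrow. Their median fold over input was 5.33 (3.98 to 10.2), against 12.2 at the 208 called against both. Their median pileup was 11 fragments and never above 23, against 28, and their median interval 172 bp against 304 bp. The highest was 2R 18565487 to 18565744, with a fold of 10.2 on 23 fragments (14.6 to 34.5). It was followed by 3L 21019302 to 21019556 (9.72-fold, 19 fragments) and 3R 17203895 to 17204092 (7.90-fold, 17 fragments). Then came 3L 20509595 to 20509796 (7.20-fold) and 2R 11817737 to 11817971 (6.86-fold), each on 15 fragments.

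The second call went with the pileup in ZIPIC-alone and other peaks alike. With 8 to 14 fragments at the summit, 29 of 57 ZIPIC-alone peaks were called against serum (50.9%, 38.3 to 63.4), and 6 of 16 others (37.5%, 18.5 to 61.4). With 15 to 29 fragments it was 85 of 94 ZIPIC-alone peaks (90.4%, 82.8 to 94.9) and 26 of 30 others (86.7%, 70.3 to 94.7). With 30 to 59 fragments, all 84 ZIPIC-alone peaks and all 74 others were called against both, and with 60 or more all 10 and all 57. Low pileups were held by 57 of 245 ZIPIC-alone peaks, with 14 fragments or fewer, against 16 of 177 others. Their part in the overall shares was not tested.

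**Figure D2:**
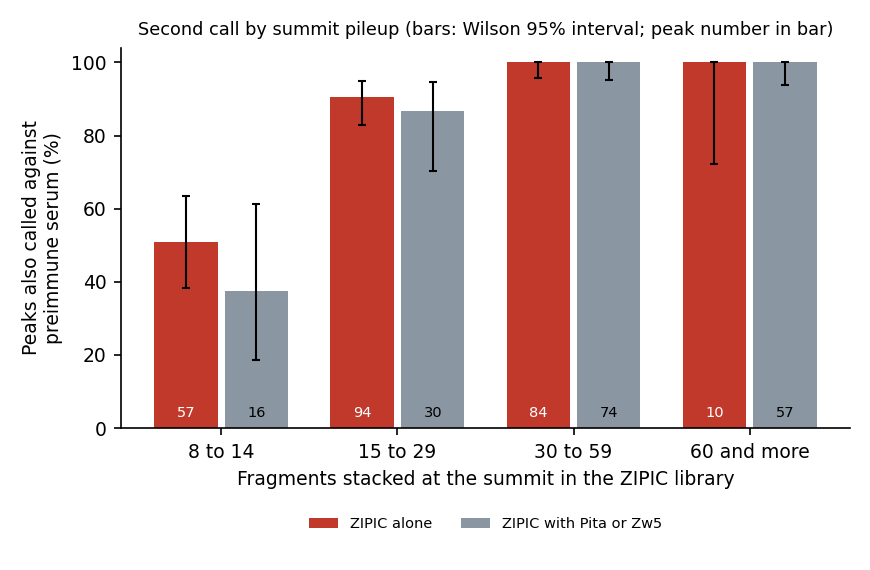
Share of autosomal ZIPIC peaks also called against preimmune serum, in percent, by the number of fragments stacked at the summit. ZIPIC-alone peaks are red and ZIPIC peaks with Pita or Zw5 grey, error bars are Wilson 95% intervals and the number in each bar is its number of peaks. The shares are 50.9% and 37.5% at 8 to 14 fragments and reach 100% in both sets from 30 fragments on, with overlapping intervals in each class.

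The autosomal ZIPIC peaks that were not alone fell into 3 kinds, 97 with Zw5 but not Pita, 33 with Pita but not Zw5 and 47 with both. ZIPIC-alone peaks, with a median of 11.2-fold over preimmune serum, lay between the kinds. The medians were 23.5 (interquartile range 16.1 to 31.1, 96 peaks) with Zw5, 8.51 (4.98 to 12.4, 28 peaks) with Pita, and 17.2 (12.4 to 23.2, 39 peaks) with both. The quartiles of ZIPIC-alone peaks, 7.27 to 16.5, overlapped widely with those of peaks with Pita and only at the edge with those of peaks with Zw5. Median pileup followed the same order, 23 fragments at ZIPIC-alone peaks against 56 with Zw5, 19 with Pita and 47 with both. The share called against serum was 84.9% at ZIPIC-alone peaks (79.9 to 88.8), 99.0% with Zw5 (96 of 97, 94.4 to 99.8), 84.8% with Pita (28 of 33, 69.1 to 93.3) and 83.0% with both (39 of 47, 69.9 to 91.1). These contrasts were not tested, and the fold over serum rests on the same pileup as the input calls that defined the kinds.

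**Figure D3:**
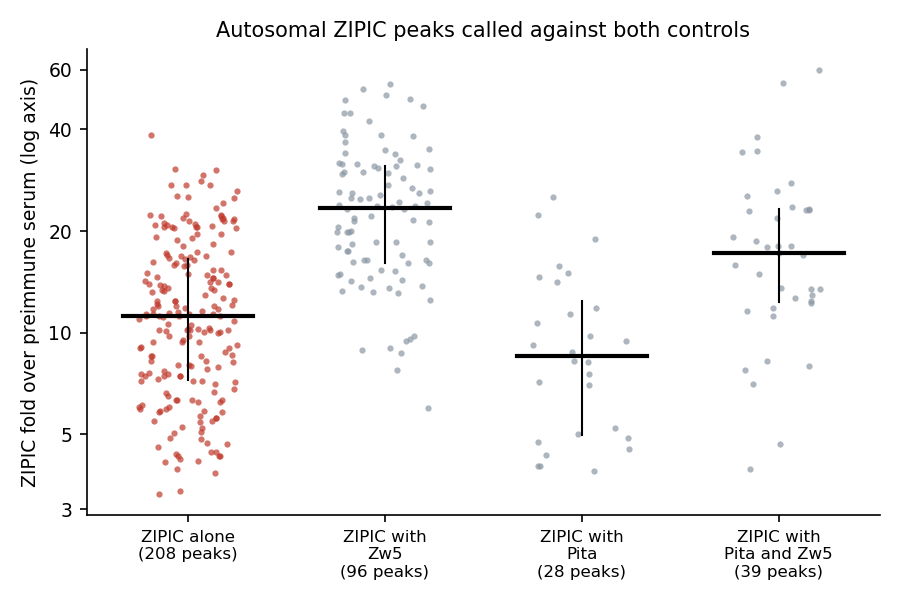
Fold of ZIPIC over preimmune serum (log axis) at autosomal ZIPIC peaks called against both controls, split by the other proteins called at the same place. Each point is a peak, the thick line the median and the thin line the interquartile range. The median is 11.2 at ZIPIC-alone peaks, 23.5 with Zw5, 8.51 with Pita and 17.2 with both.

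ZIPIC-alone peaks were found along all 4 arms at 2.06 to 3.11 per Mb up to the highest coordinate in any list. 2R had the highest density and the highest share of its ZIPIC peaks alone, with 62 of 88 (70.5%, 60.2 to 79.0, 3.11 per Mb). It was 82 of 141 on 3R (58.2%, 49.9 to 66.0, 2.95 per Mb), 54 of 100 on 3L (54.0%, 44.3 to 63.4, 2.25 per Mb) and 47 of 93 on 2L (50.5%, 40.6 to 60.5, 2.06 per Mb). The intervals of neighbouring arms in this order overlapped, and those of 2R and 2L overlapped at their edge. Height did not follow density. The median fold over input was 10.9 on 2R, 10.9 on 3R, 11.0 on 3L and 9.23 on 2L, and the share called against serum was 83.9%, 85.4%, 85.2% and 85.1% in the same order. On X the same rule gave 48 of 77 ZIPIC peaks (62.3%, 51.2 to 72.3, 2.21 per Mb), with a median of 9.96-fold over input and 43 called against serum (89.6%, 77.8 to 95.5).

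**Figure D4:**
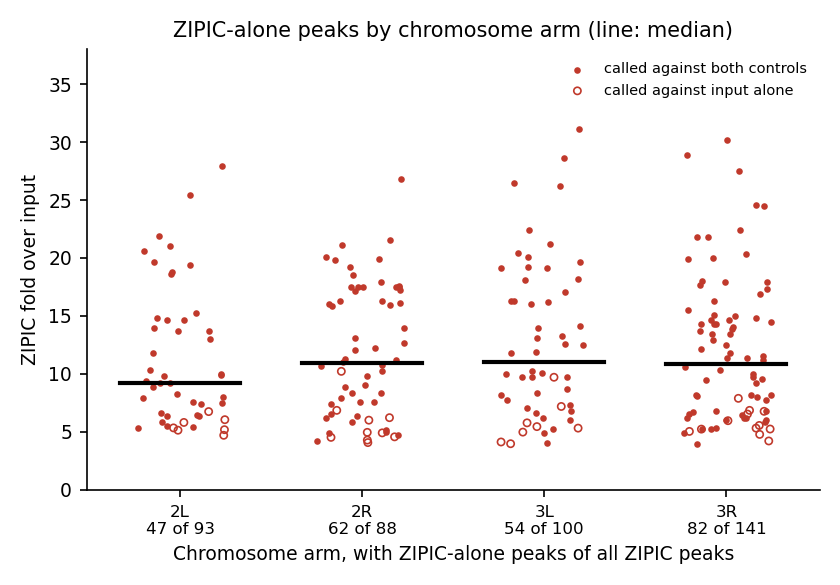
Fold of ZIPIC over input at each ZIPIC-alone peak on the 4 autosome arms, with the number of ZIPIC-alone peaks and of all ZIPIC peaks under each arm. Filled points were called against both controls, open points against input alone, and lines are medians. The medians lie between 9.23 on 2L and 11.0 on 3L, and the open points lie at or below 10.2.

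The longest stretch without a ZIPIC-alone summit was on 2L, 3.31 Mb from 13367565 to 16680067. It was not empty of the other calls: 6 ZIPIC peaks with Pita or Zw5, 44 Pita peaks and 14 Zw5 peaks lay inside. On 3R the longest stretch was 1.88 Mb from 11636052 to 13512783, with 3 such ZIPIC peaks, 48 Pita peaks and 20 Zw5 peaks. On 3L it was 1.72 Mb and on 2R 1.56 Mb. In the other direction, no window of 1 Mb held more than 8 ZIPIC-alone summits. Such a window on 3R, from 14041194 to 14988031, held the second-highest region of the set and 1 ZIPIC peak with Pita or Zw5. Windows of 8 on 2L (9431391 to 10366670) and 3L (8949900 to 9891728) each held 5 ZIPIC peaks with Pita or Zw5. The fullest window on 2R held 7 ZIPIC-alone summits and 0 such peaks.

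Most ZIPIC-alone summits lay more than 5 kb from any other summit. The nearest other ZIPIC summit was a median of 34.8 kb away (interquartile range 7.51 to 116.4), the nearest Pita summit 24.3 kb (7.86 to 46.4) and the nearest Zw5 summit 60.1 kb (20.7 to 163). These distances depend on how many peaks each list holds, with 1404 Pita, 560 Zw5 and 422 ZIPIC peaks on the autosomes. The rule had also removed every ZIPIC peak that overlapped Pita or Zw5, so it limits the shortest distances to their summits. The shares of isolated regions below follow in part from it, and shares over all autosomal ZIPIC peaks are not given. For 157 of 245 regions (64.1%, 57.9 to 69.8) no other summit of the 3 proteins lay within 5 kb, and for 77 (31.4%, 25.9 to 37.5) none lay within 20 kb. Of the 77 isolated regions, 64 were called against serum (83.1%, 73.2 to 89.9). These 64 had a median fold over serum of 11.2, the same as all 208 ZIPIC-alone regions called against it.

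Another autosomal ZIPIC summit lay within 5 kb of 51 ZIPIC-alone summits (20.8%, 16.2 to 26.3), where 18.5% of all autosomal ZIPIC peaks had one, so this share too was near the background. At peaks with Pita or Zw5 it was 27 of 177 (15.3%, 10.7 to 21.3), with an overlapping interval. The nearest such summit was itself ZIPIC-alone for 35 of the 51 (68.6%), where 58.1% of all autosomal ZIPIC peaks were ZIPIC-alone. It carried Zw5 without Pita for 12 and both for 4, and some of the 51 shared the same neighbour. A Pita or Zw5 summit lay within 5 kb of 63 regions (25.7%, 20.6 to 31.5), Pita in 48 and Zw5 in 27 of them. This share covers only what the rule left after removing the overlapping peaks. Those 63 regions were called against serum in 48 cases (76.2%, 64.4 to 85.0), and the 182 farther from Pita and Zw5 in 160 (87.9%, 82.4 to 91.9), with median folds over input of 8.90 and 11.7. The 2 intervals overlapped, and the share over all 245 was 84.9%. Median pileups were 21 and 26 fragments, and the difference in shares was not tested.

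**Figure D5:**
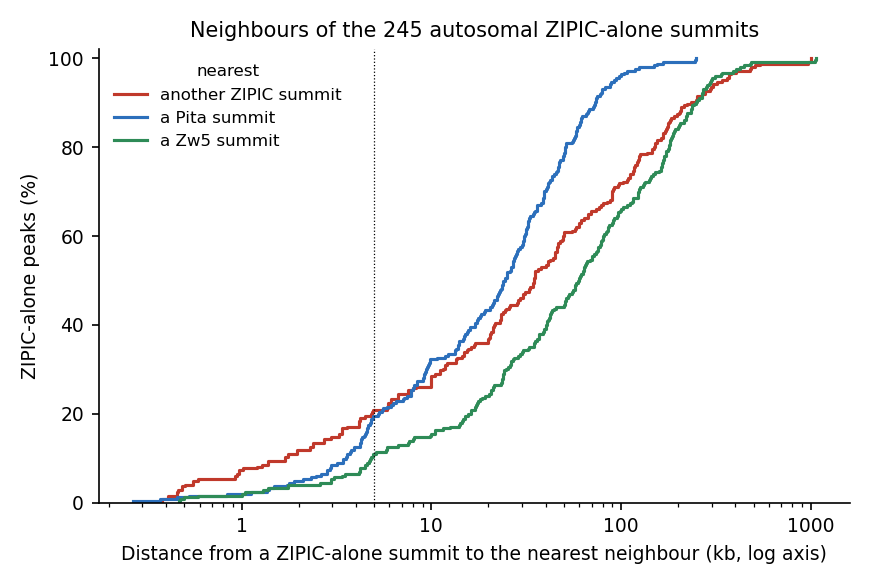
Cumulative share of the 245 ZIPIC-alone summits, in percent, against the distance in kb (log axis) to the nearest other ZIPIC summit, Pita summit or Zw5 summit. The dotted line marks 5 kb, where the shares are 20.8% for ZIPIC, 19.6% for Pita and 11.0% for Zw5. At 20 kb the Pita curve is ahead (43.3%, against 36.7% for ZIPIC and 24.1% for Zw5).

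Runs of 3 or more ZIPIC-alone peaks within 20 kb occurred 3 times. Their coordinates below are interval ends, and their spans in kb run from the first summit to the last. The run at 3R 17197978 to 17204468 held 4 peaks over 6.39 kb, with folds over input of 4.79, 6.78, 7.90 and 5.25 on 11, 14, 17 and 11 fragments. None of the 4 was called against preimmune serum, and 1 ZIPIC peak with Pita or Zw5 lay among them. The run at 2R 8888876 to 8890902 held 3 peaks of 4.97-, 6.02- and 4.91-fold within 1.44 kb, 1 of them called against serum at 4.13-fold, and its nearest Pita and Zw5 summits were 40.2 and 40.1 kb away. The run at 3R 27553466 to 27569304 held 3 peaks of 5.83-, 6.06- and 15.0-fold over 15.4 kb, all called against both controls. These runs were thus made mainly of low peaks, and the closest pair of summits of the whole set, 382 bp apart, was part of the first.

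Width set a handful of regions apart. The shortest interval, 152 bp, was shared by 23 regions and was also the shortest in both whole ZIPIC lists. At the other end, 4 regions were longer than 1000 bp. The longest, 3R 25861145 to 25862562, spanned 1418 bp at 13.9-fold over input, 10.3-fold over serum. It was followed by 2L 5534292 to 5535683 (1392 bp, 14.8 and 7.54), 2R 579748 to 580981 (1234 bp, 11.2 and 5.21) and 3R 27555407 to 27556417 (1011 bp, 6.06 and 4.18). In all 4 the fold over serum was below the fold over input.

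At the edge of the rule, the 3 regions nearest to a barring peak lay next to Pita intervals. The closest was 3R 21473816 to 21473999, whose interval ended 71 bp from a Pita interval, with folds of 6.17 over input and 6.24 over serum on 13 fragments (6.92 to 22.2). Next were 3R 1833747 to 1834172, 109 bp from a Pita interval, and 2R 14740363 to 14740546, 131 bp from one, at 4.92-fold over input on 10 fragments and with no call against serum. Just outside, the ZIPIC peak at 3L 13034022 to 13034291 overlapped a Pita interval by 14 bp and had folds of 10.8 and 14.6. Those at 3R 4182433 to 4182843 and 2L 16582838 to 16583012 overlapped Pita by 143 and 150 bp, with 18.0- and 7.77-fold over input. The next 3 regions inside the rule lay next to Zw5 intervals, at 135 bp (8.21-fold over input), 138 bp (11.8-fold) and 161 bp (14.3-fold), and were chosen after their values were seen.

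The lowest region of each arm stood on few fragments. It had a fold of 3.94 on 3R (7640344 to 7640495), 3.98 on 3L (23736698 to 23736849) and 4.08 on 2R (5962974 to 5963211), each on 8 fragments (3.45 to 15.8). On 2L it was 4.71 on 10 fragments (4382661 to 4382832). The lowest on 3R was called against preimmune serum as well, at 4.32-fold, and the other 3 were not.

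Sites held by a single protein were also counted for Pita and Zw5 with the same rule. ZIPIC was alone at 58.1% of its autosomal peaks, Pita at 1134 of 1404 (80.8%) and Zw5 at 223 of 560 (39.8%). The share of such peaks called against preimmune serum was 84.9% for ZIPIC (79.9 to 88.8), 72.2% for Pita (819 peaks, 69.5 to 74.8) and 77.1% for Zw5 (172 peaks, 71.2 to 82.2). The most common background at a summit against input was 1.06 fragments in the ZIPIC list, 9.18 in the Pita list and 10.3 in the Zw5 list. The libraries thus differ in depth and the lists in their lowest fold, so the shares are given side by side and not compared.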

How the data were processed

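ChIP-seq libraries of ZIPIC, Pita and Zw5 and the preimmune serum and input controls came from embryo chromatin fixed with 1.8% formaldehyde, per the labels' protocols. Per the submitters' processing notes, the tools were MACS2 2.1.0.20140616, Bowtie and cutadapt and the build was dm3, with arguments not given in the sources used. The authors deposited 6 narrowPeak lists, each of 1 library against 1 control. The deposited ratio is the fold enrichment at the summit, the deposited −log10 p and −log10 q are per peak, and in 100% of peaks the deposited score equalled −log10 q times 10 without its decimals. These values are the authors' and describe peaks within a list.

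Overlap needed 1 bp (count checked with bedtools 2.31.1). Pileup and background were solved from fold = (pileup + 1)/(background + 1) and a Poisson tail for p. Both steps were tested on simulated data. A region was called against both controls when it met the ZIPIC preimmune list, with the peak of nearest summit. Coordinates are dm3, counted from 1. The lists do not give read totals. Python 3.11.15, numpy 2.4.6, pandas 2.3.3, scipy 1.17.1 and matplotlib 3.10.9 were used. PCR duplicates are not independent molecules, so all intervals cover counting error only.

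The regions, settings and named lists were chosen with earlier results of these data known. Named regions are the 10 highest by fold over input called against both controls, the 5 highest not called against serum, the 5 highest and 5 lowest ratios of the folds, 3 regions on each side of the overlap rule, runs of 3 or more within 20 kb and the lowest on each arm. The 4 longest and the 1 on a Zw5 serum peak were chosen after their values were seen. A dm3 genome and annotation were not used here, so sequence words and transcription starts were not analysed.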

Additional observations from a re-analysis of the deposited data

Results flagged for a closer look

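In data that the comparisons above leave aside, 12 autosomal ZIPIC peaks called against preimmune serum overlapped no ZIPIC, Pita or Zw5 interval of the input lists. They were among 389 autosomal peaks of that list, 13 of which had no counterpart in the ZIPIC input list. The rule starts from the input list and could not reach these 12 peaks. Whether they reflect ZIPIC binding was not tested. Their fold over serum ran from 3.92 to 6.42 with a median of 5.16, in the range of the lowest ZIPIC-alone regions. The highest lay at 2R 10146410 to 10146561, with a −log10 q of 7.20. No group of samples was large enough to look for outlying libraries.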

How the results depend on the processing

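Alternatives gave 28 further values of 5 results, and 20 of these stayed within 1.5 times (the count of regions) or within the 95% interval (the others). The number of regions, 245, ran from 169 to 302 and stayed within 1.5 times. It was 302 when Pita and Zw5 peaks had to be called against both controls, 263 with summits within 100 bp as the rule, 235 with a gap of 500 bp required, and 218 or 169 with a −log10 q of 5 or 10. The share called against preimmune serum rose to 91.3% at a −log10 q of 5 and 98.2% at 10, by leaving out low peaks, and the median fold over serum was 12.8 at 10. The share with another ZIPIC summit was 11.8% within 2 kb and 36.7% within 20 kb, and 19.2% for peaks called against both controls. The share with a Pita or Zw5 summit was 7.35% within 2 kb, 54.3% within 20 kb and 18.0% with Pita and Zw5 peaks called against both controls. The wider distances hold more neighbours by construction. Alternatives for the 2 results that need a dm3 genome were not run. No paired analysis was possible because each library was made once. Depth limits the lowest regions: 57 stood on 8 to 14 fragments.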
